A study of Drosophila melanogaster with 9 samples.

Results

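Transcripts of the mitochondrial genome were examined in iCLIP2 libraries of Mei-P26, a TRIM-NHL protein that controls mRNAs in the fly germline. The members are all genes that the deposited score tables place on the mitochondrial genome. They were 38 of the 6780 genes with at least 1 cDNA, and comprised 13 protein-coding genes, 2 rRNA genes, 22 tRNA genes and the replication origin mt:ori. All 38 mitochondrial symbols in the name table were hit.

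The cells were SL2 cells by their source label and S2R+ cells by the growth text, both names of embryonic Drosophila lines with features of blood cells. The first group expressed FLAG-tagged full-length Mei-P26, the second its FLAG-tagged NHL domain alone (amino acids 908 to 1206), each from a plasmid transfected for 48 h at 15 µg DNA per dish. The third group consisted of non-transfected cells, and each group had 3 biological replicates. In all groups the RNase dose was 10 U and the UV dose of the labels 300 mJ/cm². In iCLIP2, UV light joins RNA to protein, and the protein is precipitated with an antibody. Reverse transcription tends to stop at the joined nucleotide, so that each cDNA is taken to mark 1 crosslinked position. Both proteins were therefore seen after overexpression in a cell line, not in the germline. Of the germline markers, 1 of 6 (aub, with 2 cDNAs) was hit, whereas 7 of 10 blood cell markers were hit and Hml, He and NimC1 were at 0.

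Animal mitochondrial DNA encodes core subunits of the respiratory chain, and the RNAs needed to translate them inside the organelle. Long precursor RNAs are transcribed from both strands and cut into mRNAs and rRNAs mainly at the tRNAs that lie between them. Mitochondrial transcripts are abundant in most cells, and they lie behind the membranes of the organelle. RNA levels were not measured in these samples, so that more crosslinking per RNA molecule and more RNA molecules cannot be told apart.

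Mitochondrial transcripts were recovered in all 9 libraries. Sequencing gave 14685, 1878 and 21831 cDNAs in full-length libraries, 4321, 7947 and 40032 in NHL libraries, and 1252, 1160 and 849 in control libraries. Of these, 755, 192 and 1334 lay on the mitochondrial genome in full-length libraries, 364, 612 and 3414 in NHL libraries, and 79, 88 and 64 in control libraries. Depth therefore differed widely, and NHL replicate 3 alone supplied 49.5% of the 6902 mitochondrial cDNAs.

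Per 10000 cDNAs of a library, 514, 1022 and 611 were mitochondrial in full-length libraries, 842, 770.1 and 853 in NHL libraries, and 631, 759 and 754 in control libraries. The mean was 716 ± 269.8 in full-length, 822 ± 45.1 in NHL and 714 ± 72.3 in control libraries (SD, n = 3 each). The NHL domain libraries all lay above the control libraries, and the full-length libraries lay on both sides of both other groups. NHL and control libraries were parted by less than counting error, however. NHL replicate 2, at 7.70% (exact 95% interval 7.12 to 8.31%), lay within the interval of control replicate 2 (7.59%, 6.13 to 9.26%). Full-length replicate 2, the shallowest bait library, had the highest rate of all, 10.2% (exact 95% interval 8.89 to 11.7%), against 5.14% (4.79 to 5.51%) and 6.11% (5.80 to 6.44%) in the other full-length libraries. Full-length replicates thus differed among themselves by more than counting error.

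The 2 rRNAs gave about as many cDNAs as all other mitochondrial genes together in 7 libraries, and fewer in NHL replicates 1 and 2. Their share of mitochondrial cDNAs was 48.7, 51.0 and 53.7% in full-length libraries, 30.8, 25.7 and 50.3% in NHL libraries, and 51.9, 54.5 and 54.7% in control libraries. The mean share was 51.2 ± 2.51% in full-length, 35.6 ± 13.0% in NHL and 53.7 ± 1.57% in control libraries (SD, n = 3 each). All NHL libraries were below all control libraries, but NHL replicate 3 fell within the range of the full-length libraries. It also lay inside the exact 95% intervals of all control libraries (40.4 to 63.3, 43.6 to 65.2 and 41.7 to 67.2%). Its own interval of 48.6 to 52.0% did not meet those of NHL replicate 1 (26.1 to 35.8%) and NHL replicate 2 (22.2 to 29.3%). Only the intervals of NHL replicates 1 and 2 lay below all control intervals. Without NHL replicate 3, the mean share in NHL libraries was 28.2%.

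Protein-coding genes showed the opposite picture. They gave 38.5, 30.2 and 31.3% of mitochondrial cDNAs in full-length libraries, 56.3, 56.9 and 31.9% in NHL libraries, and 31.6, 33.0 and 28.1% in control libraries. As rates these were 198, 309 and 191 cDNAs per 10000 in full-length libraries, 474, 438 and 272 in NHL libraries, and 199.7, 250 and 212 in control libraries. The NHL rates all exceeded the control rates and overlapped the full-length rates. NHL replicate 3, at 272, exceeded control replicate 2, at 250, by little, and the latter rests on 29 cDNAs. As a share, NHL replicate 3 lay within the control range. Transfer RNAs took 9.01, 17.2 and 11.4% in full-length libraries, 11.0, 16.0 and 16.2% in NHL libraries, and 12.7, 9.09 and 12.5% in control libraries, which overlapped throughout.

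**Figure D1:**
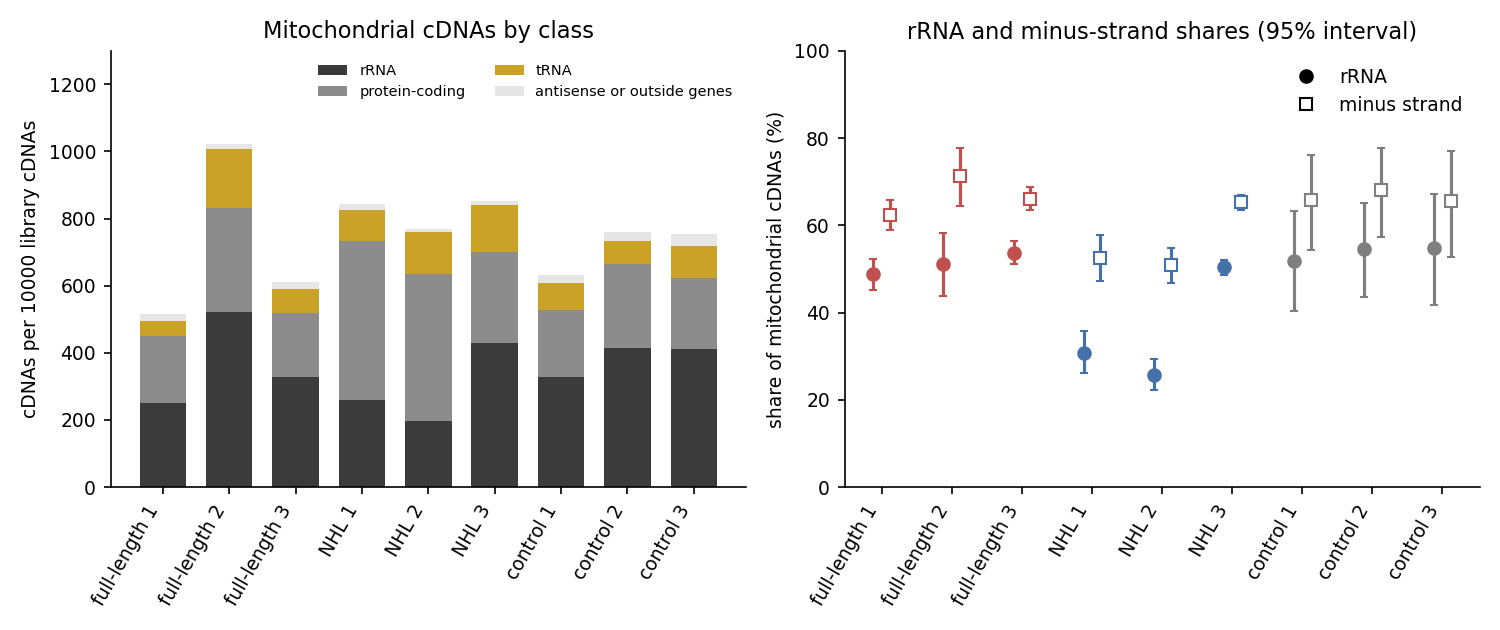
Left, mitochondrial cDNAs per 10000 cDNAs of each library, stacked by class (rRNA, protein-coding, tRNA, and antisense or outside genes). Right, the share of mitochondrial cDNAs (%) in rRNA genes (filled circles) and on the minus strand (open squares) in each library, with exact 95% intervals; NHL replicates 1 and 2 have rRNA shares of 30.8 and 25.7%, whereas the other 7 libraries lie between 48.7 and 54.7%.

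Per length, rRNAs were crosslinked most densely. The 2 rRNA genes (2110 nt) had 174 ± 66.2 cDNAs per 10000 per kb in full-length libraries, 140.0 ± 56.8 in NHL libraries and 182 ± 23.4 in control libraries. The 22 tRNA genes (1457 nt) had 66.7 ± 47.3 in full-length, 80.9 ± 15.9 in NHL and 55.6 ± 8.70 in control libraries, and the 13 protein-coding genes (11173 nt) had 20.8 ± 5.90 in full-length, 35.3 ± 9.65 in NHL and 19.7 ± 2.35 in control libraries (SD, n = 3 each). The order rRNA, tRNA, protein-coding was the same in the means of the 3 groups, the control included.

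Most mitochondrial cDNAs came from the minus strand, which carries both rRNAs, 4 protein-coding and 8 tRNA genes, while 9 protein-coding and 14 tRNA genes lie on the plus strand. The minus-strand share was 62.4, 71.4 and 66.1% in full-length libraries, 52.5, 50.8 and 65.2% in NHL libraries, and 65.8, 68.2 and 65.6% in control libraries. With the rRNAs set aside, it was 26.6, 41.5 and 26.7% in full-length libraries, 31.3, 33.8 and 30.0% in NHL libraries, and 28.9, 30 and 24.1% in control libraries. The lower overall share in NHL replicates 1 and 2 was thus not seen once rRNA was left out.

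Cutting the mRNAs by the strand of their gene gave a like result per length. The 9 plus-strand mRNAs had 22.7 ± 1.79 cDNAs per 10000 per kb in full-length libraries, 38.9 ± 10.4 in NHL libraries and 24.3 ± 2.83 in control libraries. The 4 minus-strand mRNAs had 17.9 ± 12.5 in full-length, 29.6 ± 9.15 in NHL and 12.4 ± 2.66 in control libraries (SD, n = 3 each). The large spread of the minus-strand mRNAs in full-length libraries came from replicate 2, at 32.3, against a lowest value of 9.94.

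Antisense cDNAs, which lay inside a gene of the other strand only, were rare. They numbered 131 over all libraries (1.90%), and 25 further cDNAs lay outside genes. Of all mitochondrial cDNAs, 11 lay beyond the last rRNA gene, in the part that holds the control region. Antisense cDNAs made up 3.71, 1.56 and 3.00% in full-length libraries, 1.37, 1.14 and 1.23% in NHL libraries, and 2.53, 2.27 and 3.12% in control libraries. The NHL libraries were the lowest, but the control values rest on 2 cDNAs per library. The replication origin mt:ori held 2 cDNAs, both in full-length replicate 3.

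Among the rRNAs, mt:lrRNA forms the core of the large subunit of the mitochondrial ribosome (positions 12735 to 14058 of the mitochondrial genome, minus strand, 1324 nt). It received 210, 51 and 419 cDNAs in full-length libraries, 73, 65 and 1038 in NHL libraries, and 25, 31 and 21 in control libraries. In the small subunit, mt:srRNA (14131 to 14916, minus strand, 786 nt) received 158, 47 and 298 cDNAs in full-length libraries, 39, 92 and 680 in NHL libraries, and 16, 17 and 14 in control libraries. Per 10000 per kb, mt:srRNA had 136.9, 318 and 174 in full-length libraries, 115, 147 and 216 in NHL libraries, and 163, 186 and 209.8 in control libraries. For mt:lrRNA these densities were 108, 205 and 145 in full-length libraries, 128, 61.8 and 196 in NHL libraries, and 151, 202 and 187 in control libraries. Both rRNAs overlapped between all groups on this scale.

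The balance between the rRNAs was lowest for mt:lrRNA in NHL replicate 2, the one library with fewer mt:lrRNA than mt:srRNA cDNAs. mt:lrRNA took 57.1, 52.0 and 58.4% of rRNA cDNAs in full-length libraries, 65.2, 41.4 and 60.4% in NHL libraries, and 61.0, 64.6 and 60% in control libraries.

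Crosslinks were spread unevenly along both rRNAs, with most cDNAs towards the 3′ end in every group. With each gene split into 5 equal parts, the 3′-most part of mt:lrRNA held 42.5% of its cDNAs in full-length libraries, 42.0% in NHL libraries and 33.8% in control libraries. In mt:srRNA, the 3′-most part held 39.4% in full-length libraries, 28.6% in NHL libraries and 23.4% in control libraries, and the part next to it held 33.0% in full-length libraries, 38.2% in NHL libraries and 51.1% in control libraries. The control profile rests on 77 and 47 cDNAs over all its libraries, so that single bins of it are uncertain.

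**Figure D2:**
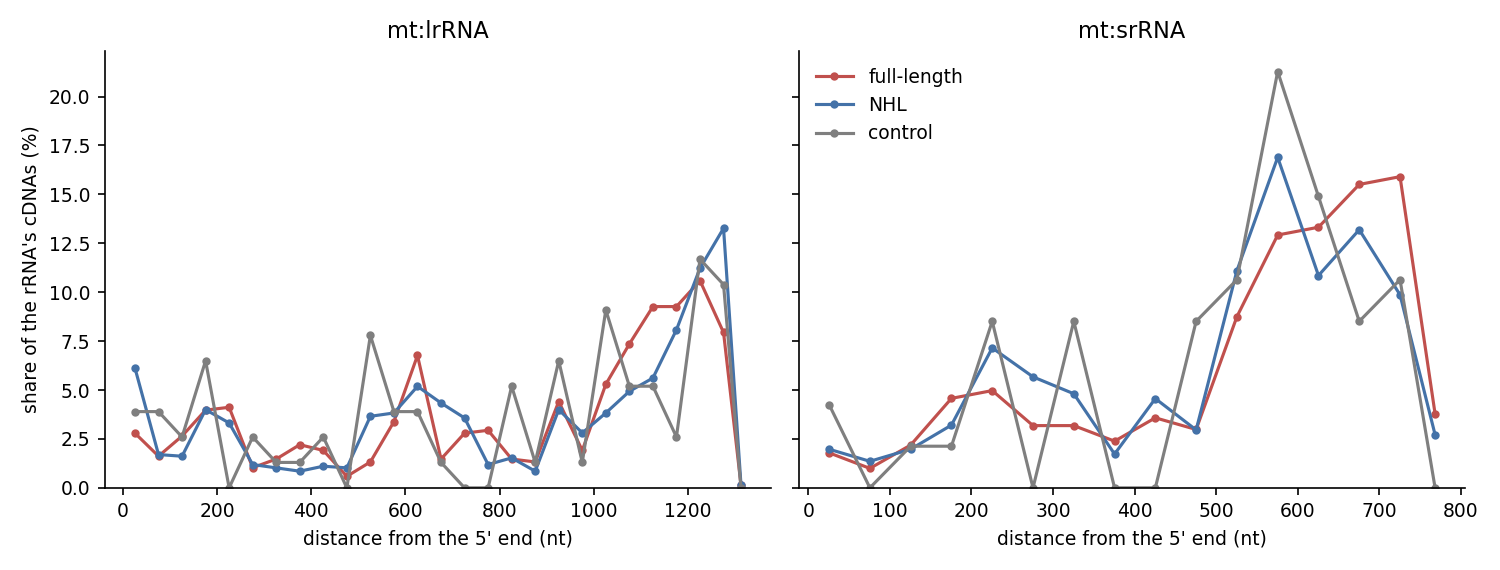
Share of the cDNAs of mt:lrRNA (left) and mt:srRNA (right) in bins of 50 nt, plotted against the distance from the 5′ end of the gene in nt; lines join the summed libraries of the full-length protein, the NHL domain and the control. In all groups the shares are higher towards the 3′ end. The last bins are shorter (nucleotides 1301 to 1324 of mt:lrRNA and 751 to 786 of mt:srRNA), and shares are not corrected for this. In the last bin of mt:lrRNA the shares are close to 0, on 1 cDNA of the full-length libraries, 2 of the NHL and 0 of the control libraries.

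The 100 nt at the 3′ end of mt:lrRNA, 7.55% of its length, varied among replicates. They held 11.4, 5.88 and 14.1% of its cDNAs in full-length libraries, 15.1, 4.62 and 21.2% in NHL libraries, and 12, 16.1 and 9.52% in control libraries. NHL replicate 3 was highest, with an exact 95% interval of 18.7 to 23.8%.

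Most of the positions that met the rule for naming lay in the rRNAs. Of 3198 crosslinked positions, 2285 (71.5%) were seen in 1 library, 25 in at least 5 of the 6 bait libraries, and 4 in all 6. A further criterion of at least 10 cDNAs in 1 library brought the number to 43, of which 34 lay in rRNAs, 7 in tRNAs and 2 in mt:CoI. The 4 seen in all 6 bait libraries were not rRNA positions only. They were 14226 and 14305 in mt:srRNA, 1273 in Trp-TCA and 2 in Ile-GAT. NHL replicate 3 supplied most counts of the named positions, and without it 7 positions, not 31, reached 10 cDNAs in 1 library.

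Summed over all libraries, the rRNA position with most cDNAs was 12795, at nucleotide 1264 of mt:lrRNA, with 0, 0 and 11 cDNAs in full-length libraries, 2, 0 and 37 in NHL libraries, and 0, 0 and 1 in control libraries. It was seen in 3 bait libraries only, and without NHL replicate 3 it held 14 cDNAs, against 25 at position 14226 and 20 at position 13434. Position 14226, at nucleotide 691 of mt:srRNA, was hit in all 6 bait libraries, by 5, 2 and 9 cDNAs in full-length libraries, 2, 6 and 21 in NHL libraries, and 1, 0 and 0 in control libraries. Position 13434, at nucleotide 625 of mt:lrRNA, had 4, 0 and 13 cDNAs in full-length libraries, 1, 2 and 24 in NHL libraries, and none in control libraries. The nucleotides on either side of 14226 were each hit in 5 bait libraries.

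Further positions in mt:lrRNA were 12814, 14027 and 12775, with 42, 32 and 27 cDNAs over all libraries. In mt:srRNA, 14395, 14160, 14761 and 14713 held 39, 33, 32 and 28 cDNAs. Position 14160, which lies 30 nt from the 3′ end of mt:srRNA, had 11, 0 and 7 cDNAs in full-length libraries and 0, 1 and 14 in NHL libraries, and was the one position with more than 10 cDNAs in full-length replicate 1. Of the 220 positions hit in control libraries, 138 (62.7%) were also hit in a bait library.

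Among the mRNAs, those of cytochrome c oxidase, ATP synthase and cytochrome b were crosslinked more densely than most complex I mRNAs. Cytochrome c oxidase (complex IV), which passes electrons to oxygen, had 30.0 ± 3.12 cDNAs per 10000 per kb over its 3 mRNAs in full-length libraries, 52.2 ± 14.6 in NHL libraries and 32.3 ± 11.1 in control libraries. The 2 ATP synthase mRNAs had 36.1 ± 2.46 in full-length, 49.4 ± 5.54 in NHL and 30.2 ± 17.4 in control libraries. Complex I, which takes electrons from NADH, had 14.6 ± 8.26 in full-length, 23.3 ± 6.70 in NHL and 10.3 ± 3.51 in control libraries over 7 mRNAs (SD, n = 3 each). The full-length libraries all lay below the NHL libraries for complex IV and ATP synthase, whereas they overlapped for complex I (8.81 to 24.1 in full-length and 15.8 to 28.7 in NHL libraries). For complex I, the NHL libraries all lay above the control libraries (6.45 to 13.3). These densities, here and below, are per cDNA of the whole library. On that scale the median of the genes tested below was also lower in full-length than in NHL libraries (log2 fold change -1.02).

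mt:CoI, which encodes the catalytic subunit of cytochrome c oxidase (1474 to 3009, plus strand), was the mRNA with most cDNAs. It had 75, 12 and 108 cDNAs in full-length libraries, 62, 93 and 265 in NHL libraries, and 8, 7 and 5 in control libraries. Per 10000 per kb this made 33.3, 41.6 and 32.2 in full-length libraries, 93.4, 76.2 and 43.1 in NHL libraries, and 41.6, 39.3 and 38.3 in control libraries. The NHL libraries lay above both other groups, NHL replicate 3 by little. Its 3′ part was hit most, since the 3′-most of 5 parts of the gene held 48.2% of the cDNAs in full-length libraries, 40.0% in NHL libraries and 55.0% in control libraries. Position 2959, 51 nt from the 3′ end of the gene, had 1, 0 and 2 cDNAs in full-length libraries, 2, 1 and 12 in NHL libraries, and none in control libraries.

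The other subunits of the oxidase were hit less. mt:CoIII (4736 to 5524, plus strand) had 27, 3 and 41 cDNAs in full-length libraries, 16, 24 and 107 in NHL libraries, and 4, 2 and 0 in control libraries. mt:CoII, which carries a copper centre (3083 to 3767, plus strand), had 23, 4 and 36 cDNAs in full-length libraries, 8, 11 and 75 in NHL libraries, and 2, 5 and 0 in control libraries. Both were crosslinked mainly near the 3′ end, where the 3′-most of 5 parts held 60.6% of mt:CoIII cDNAs in full-length and 53.7% in NHL libraries, and 65.1% of mt:CoII cDNAs in full-length and 52.1% in NHL libraries. In density, mt:CoIII was lower in full-length libraries (20.2 to 23.8) than in NHL libraries (33.9 to 46.9), whereas mt:CoII overlapped (22.9 to 31.1 in full-length and 20.2 to 27.4 in NHL libraries).

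In ATP synthase, mt:ATPase6 encodes a subunit of the proton channel (4062 to 4736, plus strand). It had 37, 4 and 52 cDNAs in full-length libraries, 17, 32 and 111 in NHL libraries, and 4, 0 and 2 in control libraries. Its densities of 31.6 to 37.3 in full-length libraries lay below those of 41.1 to 59.7 in NHL libraries, and both overlapped the control (0 to 47.3). mt:ATPase8 (3907 to 4068), whose reading frame overlaps that of mt:ATPase6, had 4, 2 and 15 cDNAs in full-length libraries, 2, 3 and 33 in NHL libraries, and 0, 1 and 1 in control libraries. Such overlapping genes share cDNAs, and their counts are uncertain there.

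mt:Cyt-b, the one mitochondrial mRNA for complex III (10499 to 11635, plus strand), had 25, 5 and 48 cDNAs in full-length libraries, 32, 44 and 111 in NHL libraries, and 2, 6 and 3 in control libraries. Its densities were 15.0, 23.4 and 19.3 in full-length libraries, 65.1, 48.7 and 24.4 in NHL libraries, and 14.0, 45.5 and 31.1 in control libraries. All NHL libraries were above all full-length libraries, NHL replicate 3 only just.

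The complex I mRNAs ranged widely. mt:ND4, which encodes a proton-pumping subunit (8207 to 9545, minus strand), had 31, 16 and 37 cDNAs in full-length libraries, 37, 77 and 156 in NHL libraries, and 4, 2 and 5 in control libraries. Full-length replicate 2 stood apart here, with 63.6 cDNAs per 10000 per kb against 15.8 and 12.7 in the other full-length libraries, on 16 cDNAs. mt:ND1 (11721 to 12659, minus strand) had 18, 4 and 23 cDNAs in full-length libraries, 14, 26 and 81 in NHL libraries, and 0, 2 and 0 in control libraries, and the longest gene, mt:ND5 (6409 to 8125, minus strand), had 22, 3 and 33 in full-length, 10, 16 and 76 in NHL, and 1, 2 and 0 in control libraries. Unlike the oxidase mRNAs, mt:ND1 was hit near its 5′ end in full-length libraries (64.4% of cDNAs in the 5′-most of 5 parts), against 28.1% in NHL libraries.

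The remaining complex I mRNAs had few cDNAs. mt:ND2 had 14, 1 and 12 in full-length libraries, 3, 9 and 30 in NHL libraries, and 0, 1 and 0 in control libraries. For mt:ND3 the counts were 7, 1 and 8 in full-length libraries, 0, 6 and 21 in NHL libraries, and 0, 0 and 1 in control libraries. These genes were among the least densely hit, mt:ND2 at 6.63 ± 2.33 in full-length libraries and 8.39 ± 2.33 in NHL libraries per 10000 per kb. mt:ND6 gave 7, 0 and 6 cDNAs in full-length libraries, 3, 3 and 12 in NHL libraries, and 0, 0 and 1 in control libraries. mt:ND4L gave 1, 3 and 0 in full-length libraries, 1, 4 and 15 in NHL libraries, and 0, 1 and 0 in control libraries.

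**Figure D3:**
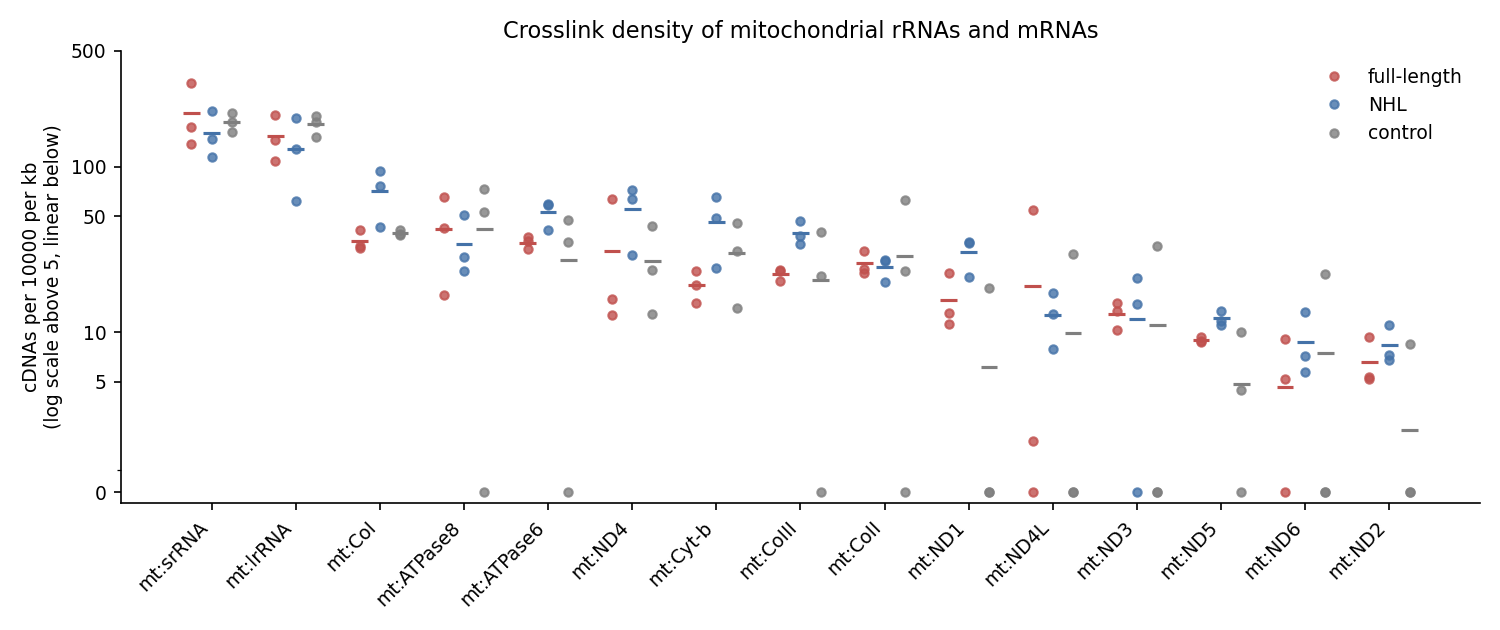
Crosslink density, in cDNAs per 10000 library cDNAs per kb of gene, of the 2 mitochondrial rRNAs and 13 mRNAs. Points are single libraries of the full-length protein, the NHL domain and the control, short lines are group means (n = 3), and the axis is logarithmic above 5 and linear below; the group means of both rRNAs lie above those of the mRNAs, although mt:lrRNA in NHL replicate 2 (61.8) lies below mt:CoI (76.2) in that library, and for mt:CoI the NHL libraries (43.1 to 93.4) lie above the full-length libraries (32.2 to 41.6).

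Neighbouring genes of 1 strand, which are thought to be transcribed together, did not share 1 density. The plus-strand genes from mt:ND2 to mt:ND3 had 25.2 ± 1.98 cDNAs per 10000 per kb in full-length libraries, 40.5 ± 8.82 in NHL libraries and 24.7 ± 3.89 in control libraries. Within this unit, mt:ND2 had 6.63 ± 2.33 in full-length libraries, against 35.7 ± 5.15 for mt:CoI. The pair mt:ND6 and mt:Cyt-b had 14.7 ± 1.47 in full-length, 34.3 ± 15.2 in NHL and 23.0 ± 11.7 in control libraries. For the minus-strand genes mt:ND5, mt:ND4 and mt:ND4L it was 18.5 ± 14.3 in full-length, 29.4 ± 9.61 in NHL and 14.1 ± 3.03 in control libraries, and in the unit of mt:ND1 with the rRNAs, mt:ND1 had 15.7 ± 6.16 in full-length libraries against 153 ± 49.0 for mt:lrRNA (SD, n = 3 each).

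To ask whether crosslinking of single genes differed between the groups, cDNA counts of all genes were compared with edgeR. The filter on low counts left 73 genes, of which 7 were mitochondrial (mt:lrRNA, mt:srRNA, mt:CoI, mt:CoIII, mt:Cyt-b, mt:ND4 and mt:ATPase6). The full-length protein and NHL comparisons against the control share the control libraries. None of the 7 passed an adjusted p of 0.05 for full-length Mei-P26 against control, where 6.85% of all tested genes passed (edgeR; 4.11% as higher and 2.74% as lower), nor for the NHL domain against control, where 0.0% passed. In both comparisons, 0 of the 7 had an unadjusted p below 0.05 (0 by DESeq2 as well).

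All 7 fitted log2 fold changes were positive for full-length Mei-P26 against control, between 0.15 (mt:Cyt-b, SE 0.65) and 1.26 (mt:ATPase6, SE 0.74), with a median of 0.63 against 0.07 over all 73 genes. For the NHL domain against control they ran from -0.49 (mt:lrRNA, SE 0.48) to 1.01 (mt:ND4, SE 0.63), with a median of 0.69 against 0.22 over all genes. The signs of the full-length comparison depend on the scaling. With libraries scaled to all their cDNAs in place of TMM, the median of all tested genes for full-length Mei-P26 against control was -0.73, a shift of -0.80, and 4 of the mitochondrial values turned negative. For the NHL domain against control, the same change shifted the median of all genes by 0.08 and turned no mitochondrial sign.

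Between the baits, the rRNAs came closest to the threshold. For full-length Mei-P26 against the NHL domain, mt:srRNA had a log2 fold change of 1.07 (SE 0.46, edgeR adjusted p = 0.0517) and mt:lrRNA 0.98 (SE 0.45, edgeR adjusted p = 0.0789), while mt:CoI had -0.11 (SE 0.47, edgeR adjusted p = 0.859). Of the 7 mitochondrial genes, 0 passed, against 38.4% of all tested genes (15.1% as higher, 23.3% as lower), and 2 had an unadjusted p below 0.05. DESeq2 called both rRNAs higher in full-length libraries (adjusted p = 0.0105 and 0.0428). So did edgeR without NHL replicate 3, at log2 fold changes of 1.69 and 1.79, with adjusted p of 0.00286 and 0.00169. Without full-length replicate 1, mt:srRNA alone passed (1.38, edgeR adjusted p = 0.0479), and without full-length replicate 2, mt:ND4 passed as lower (-1.35, edgeR adjusted p = 0.0364). With all cDNAs as scale, the median of all genes shifted by -0.89 and the values were 0.35 for mt:srRNA and 0.23 for mt:lrRNA. With no filter on low counts both turned negative, at -0.19 for mt:srRNA and -0.28 for mt:lrRNA.

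**Figure D4:**
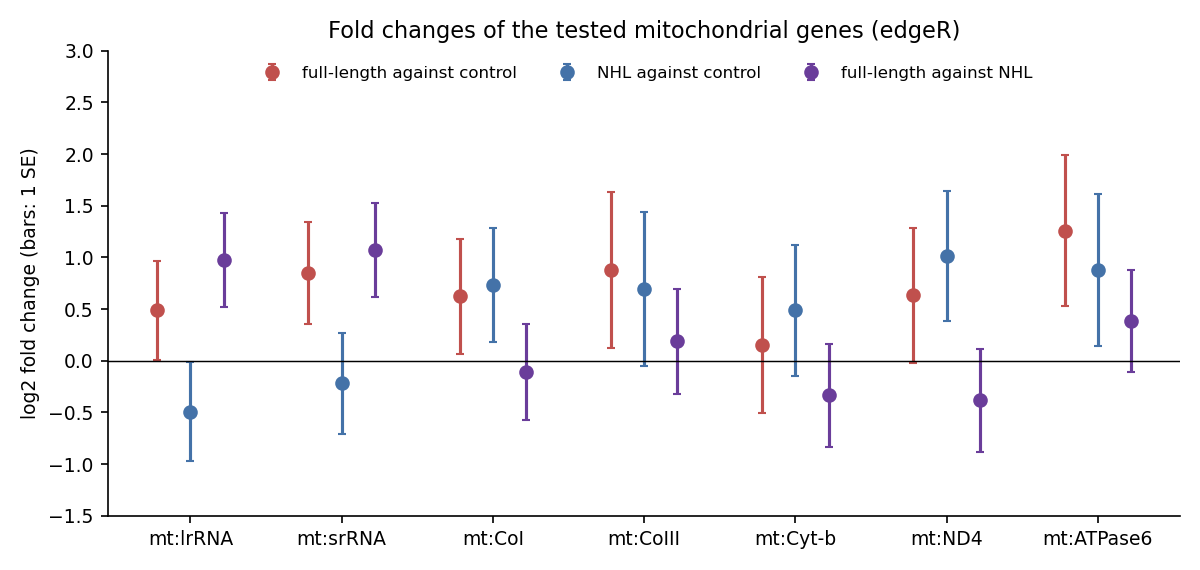
Log2 fold changes of the 7 tested mitochondrial genes (edgeR, TMM scaling, bars of 1 SE) for full-length Mei-P26 against control, the NHL domain against the control, and the full-length protein against the NHL domain. The highest values between the baits are those of mt:srRNA (1.07) and mt:lrRNA (0.98); all 7 values against the control are above 0 for the full-length protein, 4 of which turn negative when libraries are scaled to all cDNAs.

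As a description of all named genes, the 31 mitochondrial genes with at least 20 cDNAs were set against the 864 genes of that size. With the full-length protein, 4 of the 31 had rates per 10000 above all control libraries (11.0% of the 864), and 0 lay below (4.05%). These 4 were tRNAs (Leu-TAA, Leu-TAG, Gly-TCC and Thr-TGT) with 0 cDNAs in every control library. With the NHL domain, 6 lay above all control libraries (16.1%), namely mt:CoI, mt:ND1, mt:ND5 and the tRNAs Leu-TAA, Leu-TAG and Gly-TCC, and 0 below (3.24%). Between the baits, 7 genes were lower in all full-length libraries (11.1%), namely mt:CoI, mt:Cyt-b, mt:ATPase6, mt:CoIII, mt:ND5 and the tRNAs Asn-GTT and Arg-TCG, and 0 were higher (9.38%). On this scale the median of all tested genes was also lower in full-length libraries (log2 fold change -1.02). With TMM scaling, the tested ones among them had 0.38 (mt:ATPase6), 0.19 (mt:CoIII), -0.11 (mt:CoI) and -0.33 (mt:Cyt-b).

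All 22 tRNA genes were hit, and 16 of them by at least 20 cDNAs. The asparagine tRNA mt:tRNA:Asn-GTT led, with 16, 1 and 22 cDNAs in full-length libraries, 8, 16 and 139 in NHL libraries, and 1, 2 and 4 in control libraries. Transfer RNAs bring amino acids to the ribosome, and on mitochondrial precursors they also mark where the RNA is cut. The valine tRNA Val-TAC, which lies between both rRNAs, had 5, 4 and 11 cDNAs in full-length libraries, 3, 14 and 67 in NHL libraries, and 2, 1 and 0 in control libraries. Trp-TCA had 7, 7 and 21 in full-length libraries, 3, 6 and 39 in NHL libraries, and 1, 0 and 1 in control libraries. Ile-GAT, the first gene of the map, had 9, 3 and 3 in full-length libraries, 1, 8 and 54 in NHL libraries, and 0, 1 and 0 in control libraries.

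The other named tRNAs had fewer cDNAs, and no order among them can be read at this depth. Lys-CTT had 3, 2 and 15 cDNAs in full-length libraries, 3, 6 and 26 in NHL libraries, and 1, 0 and 0 in control libraries. Arg-TCG had 3, 0 and 4 in full-length libraries, 5, 5 and 35 in NHL libraries, and 1, 1 and 0 in control libraries. Gln-TTG had 4, 1 and 15 in full-length libraries, 0, 2 and 18 in NHL libraries, and 0, 0 and 1 in control libraries. Tyr-GTA had 2, 4 and 6 in full-length libraries, 3, 4 and 20 in NHL libraries, and 1, 0 and 0 in control libraries. Gln-TTG and Tyr-GTA lie on the minus strand, near the start of the map. Met-CAT had 1, 1 and 7 in full-length libraries, 1, 5 and 21 in NHL libraries, and 1, 1 and 0 in control libraries. Ser-GCT had 2, 3 and 4 in full-length libraries, 2, 3 and 21 in NHL libraries, and 1, 1 and 0 in control libraries.

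Both leucine tRNAs were seen with the baits only. Leu-TAA had 4, 2 and 3 cDNAs in full-length libraries and 3, 9 and 13 in NHL libraries. Leu-TAG had 1, 1 and 6 in full-length libraries and 3, 2 and 15 in NHL libraries. In the control they were not detectable at this depth, since a count of 0 allows up to 3 cDNAs per library. Gly-TCC had 1, 1 and 2 cDNAs in full-length libraries, 1, 6 and 11 in NHL libraries, and 0 in control libraries. Thr-TGT had 1, 1 and 4 in full-length libraries, 0, 1 and 13 in NHL libraries, and 0 in control libraries. Cys-GCA and Pro-TGG were not seen in every bait library. Cys-GCA had 1, 0 and 5 in full-length libraries, 1, 0 and 15 in NHL libraries, and 0, 1 and 0 in control libraries. Pro-TGG had 3, 0 and 4 in full-length libraries, 1, 1 and 10 in NHL libraries, and 0, 0 and 1 in control libraries. The remaining 6 tRNA genes had 6 (Phe-GAA) to 18 (Ala-TGC) cDNAs in all.

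Within the tRNAs, cDNAs piled up at nucleotides 9 and 10 from the 5′ end, and this was seen in all groups. These positions make up 3.02% of the tRNA length, and held 308 of the 969 tRNA cDNAs (31.8%). By library the share was 29.4, 15.2 and 38.2% in full-length libraries, 32.5, 30.6 and 31.7% in NHL libraries, and 20, 25 and 37.5% in control libraries. Over the 26 control cDNAs the exact 95% interval was 11.6 to 47.8%, which holds the bait values. Whether reverse transcription stopped at nucleotides 9 and 10 because of a crosslink or of another feature of the RNA was not tested. Of the 22 tRNAs, 21 had a cDNA at nucleotide 9 or 10, Pro-TGG being the exception, and in 13 of them 1 of these was the nucleotide with most cDNAs.

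A single position contributed much of this. Position 6134, at nucleotide 9 of Asn-GTT, was the position of the mitochondrial genome with most cDNAs. It had 7, 0 and 15 cDNAs in full-length libraries, 6, 8 and 77 in NHL libraries, and 1, 1 and 0 in control libraries. Without Asn-GTT, nucleotides 9 and 10 still held 28.5% of tRNA cDNAs in full-length libraries, 22.6% in NHL libraries and 26.3% in control libraries. In the other tRNAs of the bait libraries most of these cDNAs lay at nucleotide 10. Position 1273, at nucleotide 10 of Trp-TCA, was hit in all 6 bait libraries, by 2, 3 and 15 cDNAs in full-length libraries, 1, 3 and 16 in NHL libraries, and none in control libraries. Nucleotide 10 of Gly-TCC and of Gln-TTG held 63.6 and 41.5% of the cDNAs of those tRNAs.

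**Figure D5:**
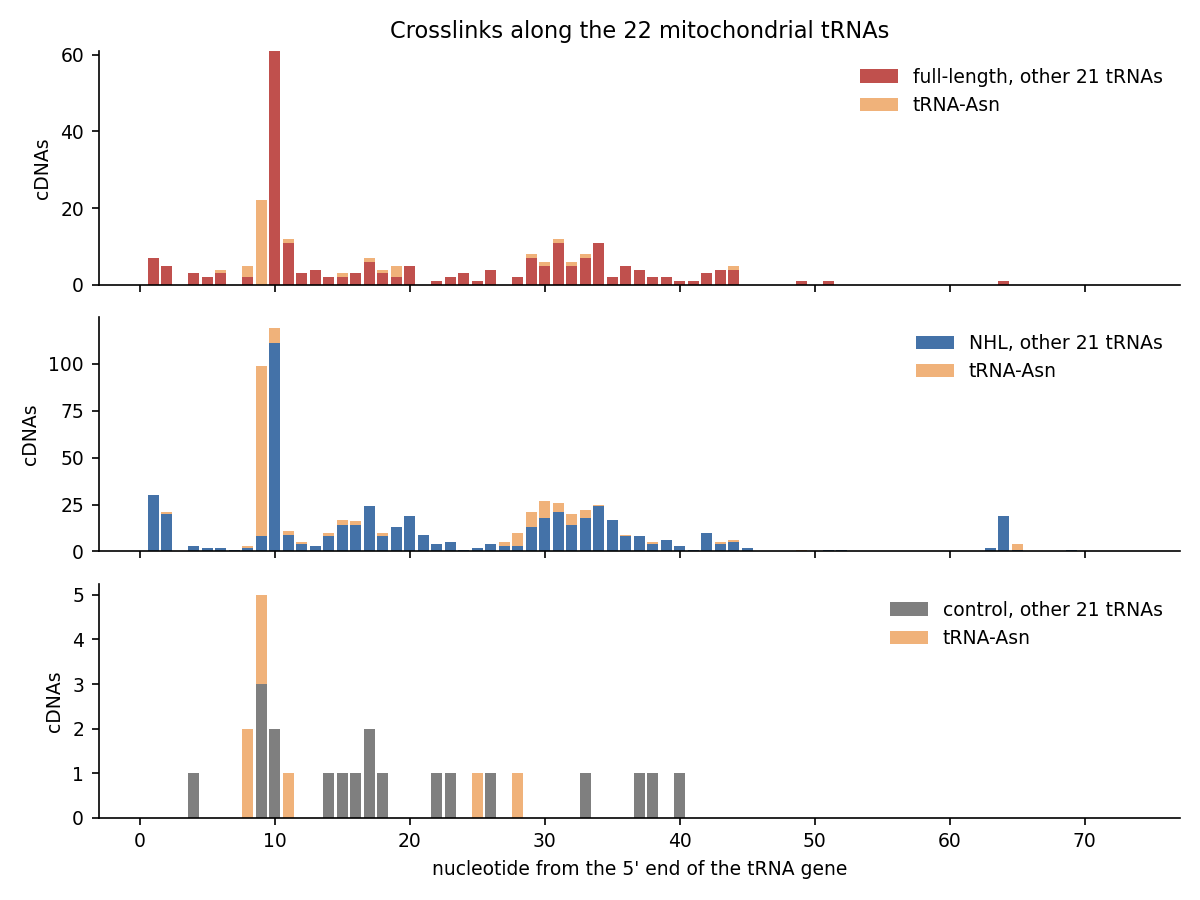
Number of cDNAs at each nucleotide from the 5′ end, summed over the 22 mitochondrial tRNA genes, for the full-length protein (top), the NHL domain (middle) and the control (bottom). Bars for tRNA-Asn are drawn apart from those of the other 21 tRNAs, and nucleotides 9 and 10 hold 83 cDNAs in the top panel, 218 in the middle and 7 at the bottom.

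Smaller accumulations lay at the start of the tRNAs and around the anticodon. Summed over all libraries, the nucleotide with most cDNAs was 34 in Met-CAT (6 cDNAs) and Leu-TAA (9 cDNAs). It was 37 in Ser-GCT (6 cDNAs), 31 in Pro-TGG (8 cDNAs) and 30 in Thr-TGT (7 cDNAs). In Tyr-GTA it was 17 (7 cDNAs), and in Leu-TAG 11 (4 cDNAs). Nucleotides 1 and 2 held 4.74% of tRNA cDNAs in full-length libraries, 7.39% in NHL libraries and 0 of 26 cDNAs in control libraries, whose exact 95% interval reaches 13.2%. Position 2, at nucleotide 2 of Ile-GAT, was hit in all 6 bait libraries, by 3, 1 and 1 cDNAs in full-length libraries and 1, 1 and 15 in NHL libraries. The last 25 nt of the tRNAs, 37.7% of their length, held 3.95% of the cDNAs in full-length libraries, 5.65% in NHL libraries and 0 of 26 in control libraries. Of the 49 cDNAs there, 23 lay in Arg-TCG, and position 6125, the last nucleotide of that tRNA and next to Asn-GTT, held 0, 0 and 1 cDNAs in full-length libraries and 1, 2 and 16 in NHL libraries.

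Nuclear tRNAs were not hit in this way. Over 162 nuclear tRNA genes, 4 of 1240 cDNAs (0.323%) lay at nucleotide 9 or 10, against 31.8% in the mitochondrial tRNAs, and the highest share in any library was 0.935%. Their last 25 nt held 26.9% of cDNAs, against 5.06% in the mitochondrial tRNAs. Many nuclear tRNA genes have near-identical copies, so that their counts are uncertain, and no test was run because the tRNAs of 1 library are not replicates.

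Several longer genes also had no cDNA at their annotated 3′ end. The last 25 nt held 0 of 1361 cDNAs in mt:srRNA, 0 of 365 in mt:ND4, 0 of 168 in mt:ND1, 0 of 164 in mt:CoII and 0 of 163 in mt:ND5. They held 3 of 1933 in mt:lrRNA, 3 of 635 in mt:CoI, 1 of 276 in mt:Cyt-b and 4 of 259 in mt:ATPase6. In mt:CoIII they held 30 of 224 cDNAs (13.4%), against 3.17% of its length. In mt:ND2 they held 3 of 70 (4.29%), against 2.44% of its length. The other genes had 0 of 44 (mt:ND3), 3 of 61 (mt:ATPase8), 1 of 32 (mt:ND6) and 1 of 25 (mt:ND4L) there. In the genes with 0, the nearest cDNA lay 26 (mt:ND5) to 29 nt (mt:srRNA) from the 3′ end. An absence of cDNAs at the annotated 3′ end was thus not common to all genes. Some genes overlap the next gene, but mt:CoIII and mt:ND2 do not. mt:CoIII ends at 5524 and Gly-TCC starts at 5543, and mt:ND2 ends at 1263 and Trp-TCA starts at 1264. The cause was not tested.

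Positions in mitochondrial RNAs also held repeated cDNAs more often than others in the bait libraries. The share of positions with more than 1 cDNA was 15.8, 7.95 and 23.5% in full-length libraries, against 5.94, 5.63 and 8.49% on all other chromosomes of these libraries. In NHL libraries it was 11.9, 13.3 and 29.7%, against 8.12, 12.5 and 9.80% elsewhere. In the control it was 3.95, 2.33 and 1.59%, against 4.18, 3.69 and 4.14% elsewhere, with at most 2 cDNAs at a position. Within each bait, the mitochondrial share was highest in the deepest library, replicate 3.

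Peaks, the positions that the authors' caller placed below a false discovery rate of 0.05 within a gene, followed depth as well. There were 28, 2 and 112 mitochondrial peaks in full-length libraries, 4, 15 and 306 in NHL libraries, and none in control libraries. All peaks numbered 798, 113 and 1895 in full-length, 340, 841 and 3769 in NHL, and 57, 42 and 60 in control libraries. The mitochondrial share of peaks was 3.51, 1.77 and 5.91% in full-length and 1.18, 1.78 and 8.12% in NHL libraries. In each bait library it was below the mitochondrial share of cDNAs. With so few control peaks, the absence of mitochondrial ones carries little information. NHL replicate 3 held 65.5% of the 467 mitochondrial peaks. Of these peaks, 292 lay in rRNAs, 114 in mRNAs and 61 in tRNAs. mt:srRNA held 20, 2 and 39 peaks in full-length libraries and 0, 5 and 89 in NHL libraries, and mt:lrRNA 1, 0 and 36 in full-length libraries and 0, 0 and 100 in NHL libraries. Among the mRNAs, mt:CoI had most, 14 in full-length libraries and 36 in NHL libraries.

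Recurrence of peaks at the same nucleotide was limited by the unequal peak numbers of the replicates. With the full-length protein, 33 of 142 peaks (23.2%) were peaks in another replicate, and 60 (42.3%) had one within 5 nt. With the NHL domain these were 25 of 325 (7.69%) and 38 (11.7%). NHL replicates 1 and 2 held only 4 and 15 peaks, so that most of the 306 peaks of replicate 3 had none to match. Full-length replicates 1 and 2 held 28 and 2, against 112 in replicate 3. The shares of recurring peaks therefore cannot be compared between the baits. Clusters, which join neighbouring peaks, were present in 11 mitochondrial genes in full-length libraries and in 19 in NHL libraries, of which 5 in each group had clusters in at least 2 replicates. With the full-length protein mt:srRNA had clusters in all 3 replicates, and in NHL libraries mt:CoI had.

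Nuclear genes that serve mitochondrial gene expression had few cDNAs each. Of 24 genes for mitochondrial transcription, RNA processing and translation, 18 had a cDNA, with 23 cDNAs in full-length libraries, 43 in NHL libraries and 1 in control libraries. They include bsf, which stabilises mitochondrial mRNAs in flies (3 cDNAs in full-length, 4 in NHL and 0 in control libraries), and rswl, the relative of human TRMT10C, a part of mitochondrial RNase P that in human cells also takes part in tRNA methylation (1 cDNA each in full-length and NHL libraries). Of 73 mitochondrial ribosomal protein genes, 59 had a cDNA, with 56 cDNAs in full-length libraries, 82 in NHL libraries and 5 in control libraries. Of 92 nuclear genes of oxidative phosphorylation, 65 had a cDNA, at 76.1 ± 18.6 per 10000 in full-length, 81.2 ± 9.73 in NHL and 85.9 ± 23.8 in control libraries (SD, n = 3 each). None of these genes passed the filter on low counts, so that none was tested, and their rates overlapped between the groups.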

How the data were processed

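iCLIP2 cDNAs of 9 libraries were analysed. The authors demultiplexed reads, removed PCR duplicates, trimmed adapters, aligned the reads of each replicate to a Drosophila assembly with Ensembl annotation (release 98) and called crosslinks with iCount; the submitters' processing notes name STAR 2.7.3a, and other versions and the minimum read length are not given in the sources used here. The deposited values are counts of distinct cDNAs per crosslinked nucleotide, unnormalized. The authors' false discovery rate, a corrected p-value, defines their deposited peaks. Flanked clusters were not used here. Gene limits were taken from RefSeq (Release 6 plus ISO1 MT, 37 genes matched), and all 4456 annotated mitochondrial score lines checked lay inside them. Positions count from 1.

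Scores were summed per gene and library. Class sums count a cDNA of 2 genes once. Libraries held 849 to 40032 cDNAs; exact (Clopper-Pearson) 95% intervals cover counting error only. Gene counts were compared with edgeR 4.0.16 (R 4.3.3; all libraries in 1 fit, TMM, filterByExpr, Benjamini-Hochberg at 0.05), which was tested on simulated data; alternatives included DESeq2 1.42.0. Effective library sizes were 0.168 to 0.288 per cDNA in full-length, 0.326 to 0.374 in NHL and 0.310 to 0.401 in control libraries. p-values measure the spread among these biological replicates. Named were genes with at least 20 cDNAs, and positions in at least 5 bait libraries or with at least 10 cDNAs in 1. Members and lists were chosen with earlier results of these data known. The treatment text names mutated proteins as control, whereas the treatment entries of these samples say non-transfected. The UV dose of the labels, 300 mJ/cm², differs from that in the methods. Figures were drawn with matplotlib 3.10.9 in Python 3.11.15.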

Additional observations from a re-analysis of the deposited data

How the results depend on the processing

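Leaving out each library in turn, the genes called by edgeR numbered 1 to 8 for full-length Mei-P26 against control, 0 to 13 for the NHL domain against control and 13 to 56 for full-length Mei-P26 against the NHL domain, against 5, 0 and 28 with all libraries. With no filter on low counts they numbered 3, 15 and 18. With libraries scaled to all cDNAs, 3 were called for full-length Mei-P26 against control (0 higher and 3 lower, against 3 and 2), and between the baits the split was 1 higher and 23 lower, against 11 and 17. With positions in several genes left out, 11 were called between the baits. DESeq2 called 5, 0 and 23. Replicate numbers did not pair the samples, as same-numbered libraries correlated between -0.39 and 0.29, and with the replicate block 5, 0 and 22 genes were called.

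Of 21 mitochondrial log2 fold changes, each under 14 alternatives, 35 of 294 values changed sign and 6 came to pass the threshold. Scaled to all cDNAs, mt:CoI (-0.18), mt:Cyt-b (-0.70), mt:lrRNA (-0.25) and mt:ND4 (-0.021) turned negative for full-length Mei-P26 against control, and mt:ATPase6 (-0.56) and mt:CoIII (-0.75) for full-length Mei-P26 against the NHL domain. With no filter, values between the baits were -0.74 for mt:ATPase6, -0.95 for mt:CoIII, -0.28 for mt:lrRNA and -0.19 for mt:srRNA, and against the control in NHL libraries 1.25 for mt:lrRNA and 1.49 for mt:srRNA. With positions in several genes left out, mt:Cyt-b was at -0.055 for full-length Mei-P26 against control and mt:CoIII at -0.040 between the baits, and DESeq2 gave 0.049 for mt:CoI between the baits. The cause was not tested. Without single libraries, signs changed for mt:Cyt-b against the control in full-length libraries (-0.21 to 0.77), for mt:lrRNA (-1.16 to 0.054) and mt:srRNA (-0.70 to 0.31) in NHL libraries, and between the baits for mt:ATPase6 (-0.11 to 0.82), mt:CoI (-0.64 to 0.31), mt:CoIII (-0.30 to 0.51), mt:Cyt-b (-0.87 to 0.10) and mt:ND4 (-1.35 to 0.31).

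With cDNAs on annotated genes as denominator the NHL rate was 890.5 per 10000, and without small RNA genes, mei-P26 and Act5C it was 991, against 801 in the control. Counting each position once, the rRNA share in full-length libraries was 45.1% and the tRNA share in NHL libraries 11.3%. Without single libraries, the mean rate was 563 to 817 in full-length libraries, 806 to 848 in NHL libraries and 692 to 756 in the control, and the rRNA share 49.9 to 52.4% in full-length, 28.2 to 40.5% in NHL and 53.2 to 54.6% in control libraries. Leaving out each library in turn, an alternative chosen after seeing the data, left 30 to 140 peaks in full-length libraries and 19 to 321 in NHL libraries. Recurring peaks numbered 60 and 83 within 5 and 50 nt in full-length libraries, and 38 and 69 in NHL libraries, and genes with clusters in at least 2 replicates numbered 5 for both. Control libraries, with 64 to 88 mitochondrial cDNAs each, limit every comparison with the control.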
